A study of Mus musculus with 4 samples.

Results

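The genes described here are the Wnt ligands, their receptors and secreted inhibitors, and the core proteins that relay the Wnt signal to the nucleus. They were taken by symbol from the array's annotation, without regard to case: every gene named Wnt, Fzd, Sfrp, Dkk or Dvl with a number, and Lrp5, Lrp6, Ctnnb1, Axin1, Axin2, Apc, Tcf7, Tcf7l1, Tcf7l2, Lef1 and Porcn. This gave 51 genes, out of 17742 named on the array, at 59 of its 26423 probes. The cells were 3T3-L1, a mouse preadipocyte line that becomes fat-storing adipocytes when induced. There were 2 berberine arrays, from cells given the induction mixture together with 13.47 µM berberine, a plant alkaloid, for 48 hours. There were 2 control arrays, titled as control. The labels attach 1 treatment text, berberine included, to all 4 samples, so the groups follow the sample titles, and that the control cells had the mixture without berberine is how the titles are read here. The mixture was made of insulin at 1 µg/ml, dexamethasone at 1 µM and isobutylmethylxanthine at 0.5 mM. The comparison asks how expression of these genes differed with berberine during induced differentiation. Separate cultures are not named in the labels, so each p-value reflects the variation among these 4 arrays alone, and that variation may be technical.

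Wnt proteins are secreted, lipid-modified ligands that bind Frizzled receptors and the co-receptors Lrp5 and Lrp6 on the cell surface. In the canonical branch, binding stops a complex built on the Axin and Apc scaffolds from marking beta-catenin for destruction, and beta-catenin then works with TCF/LEF factors on target genes. In mouse preadipocytes, canonical Wnt signalling is known for holding back differentiation into adipocytes, and Wnt10b is the ligand best known for it. Other Wnt proteins act through polarity and calcium branches that do not need beta-catenin.

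Values are array intensities after quantile normalization between arrays, on a linear scale when given array by array. Changes are berberine minus control on the log2 scale, with the standard error (SE) and adjusted p of a limma fit over all probes, and n = 2 arrays in each group throughout. A change passed when its adjusted p was under 0.05. Probes with a mean below an intensity of 95.3, the 25th percentile after normalization, were taken as under the floor. A fold against a group under the floor is a lower bound, and no fold is given where both groups were under it. The array does not show which part of a transcript a probe binds, so no probe's level is set against another's.

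The 4 arrays had deposited median intensities of 237 and 280 with berberine and 423 and 350 in control. The 2 berberine arrays differed less from each other than the 2 control arrays, with median absolute log2 differences of 0.088 and 0.26 among probes above log2 10 in control. Berberine and control separated at a large share of the array, and 44.8% of all 26408 fitted probes passed, 27.1% higher and 17.7% lower. Adipocyte genes moved with the groups. The summed intensity of 10 adipocyte marker probes was 31971 and 33822 on the berberine arrays, against 586667 and 562163 on the control arrays, with 7 of them lower, 2 higher (Slc2a4 and Pparg) and the probes of Pparg and Lpl under the floor in both groups. Of 9 probes for 8 preadipocyte and fibroblast markers, 3 were higher and 4 lower. Pdgfrb, Cd34 and Col1a1 were the higher ones, and Pdgfra, Col3a1, Fn1 and 1 Dlk1 probe the lower ones. The sum of the 9 probes was 199859 and 205025 with berberine, against 281077 and 295468 in control. Vim, which did not pass, gave 138112 and 146386 of it with berberine and 138705 and 166207 in control. The part that this difference in adipocyte markers plays in the Wnt results was not tested. In bulk samples, fewer cells of a type and less RNA per cell cannot be told apart.

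Wnt pathway members moved both ways with berberine. The largest falls were at Axin1, Lef1, Fzd8 probe 2, Sfrp5, Porcn and Wnt4, and the largest rises at Dkk3, Tcf7l1 and Wnt9a. Fzd8 probe 1 had the opposite sign, and the rise of Wnt9a was not called in the deposited values. Of the 59 probes, 12 were higher, 11 lower and 36 did not pass, and 1 of the higher ones (Fzd10 probe 2) was under the floor in both groups. The called share was 39.0%, against 44.8% of all probes, with 20.3% higher against 27.1% and 18.6% lower against 17.7%. The median log2 change was 0.14 for the members and 0.17 for all probes. When a change of at least 2-fold was also asked for, 10 member probes were left, 3 higher and 7 lower, or 16.9% against 22% of all probes. The groups did not overlap at 44 member probes, 74.6% against 74.8% of all. Shares this near the array's own give no result about the family as a whole, and what follows concerns single members. Of the 59 probes, 52 were at or above the floor in at least 1 group.

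The scaling of the arrays moved the balance of rises and falls. Members called were 3 higher and 11 lower in the deposited values, 19 and 8 after each array was centred on its median, and 7 and 9 after scaling on the 75th percentile. Of all probes, 25.3% were called in the deposited values (9.07% higher, 16.2% lower), 53% after centring (40.5%, 12.5%) and 35.1% on the 75th percentile (21.1%, 14%). The median change of all probes was -0.05, 0.52 and 0.26 in those scalings, and that of the members -0.13, 0.43 and 0.17. In all 4 scalings 11 probes kept their call, 3 higher (Dkk3, Tcf7l1 and Fzd1) and 8 lower (both Axin1 probes, Lef1, Fzd8 probe 2, Sfrp5, Porcn, Wnt4 and Fzd5 probe 2). Without either berberine array, 7 member probes passed, 2 higher and 5 lower. These 7, the probes of Dkk3, Tcf7l1, Axin1, Lef1 and Wnt4 and probe 2 of Fzd8, also passed without either control array. The other 16 called probes missed the threshold without berberine replicate 1 and likewise without berberine replicate 2. Without control replicate 1, 8 calls were lost, at Wnt1, Wnt10a, Wnt11, Dvl3, Dkk1, Tcf7l2 and both probes of Fzd10, and without control replicate 2, 3 were lost, at Wnt11 and both probes of Fzd10.

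**Figure D1:**
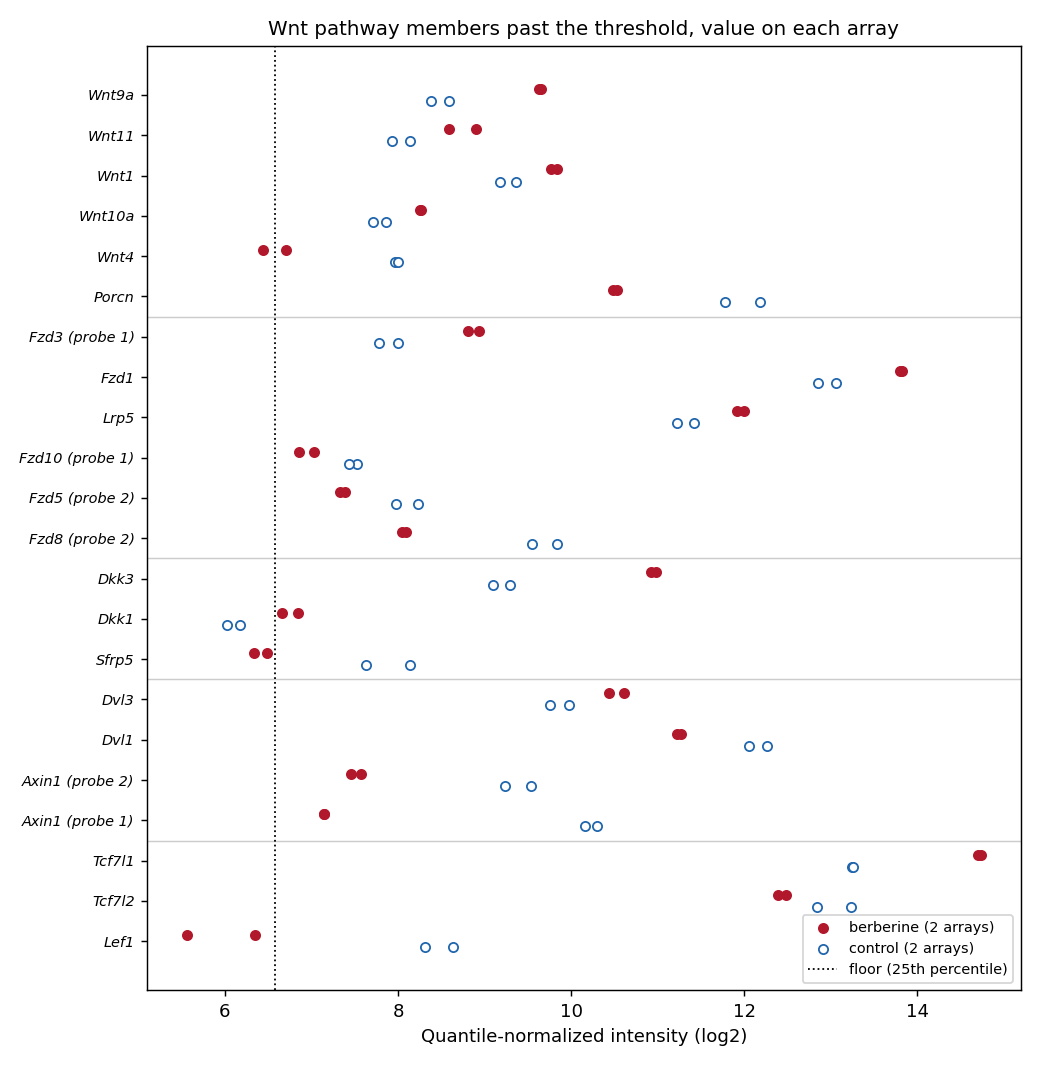
Quantile-normalized log2 intensity (horizontal axis) of the 22 member probes past the threshold and at or above the floor in at least 1 group, one row per probe in 5 role groups, with filled points for the 2 berberine arrays, open points for the 2 control arrays and a dotted line at the floor. In every row the 2 groups of points stand apart, as they do at 74.8% of all probes. The berberine points of Wnt4, Sfrp5 and Lef1 lie around or under the floor. Rows are not to be compared with each other.

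Among the ligands, Wnt4 was lower and Wnt9a higher with berberine, while Wnt5a and most other Wnt genes did not pass. Of 19 Wnt probes, 1 for each gene, 4 were higher and 1 lower (of all probes, 27.1% and 17.7%). Wnt9a, a ligand of limb and joint development, read 792 and 802 on the berberine arrays, against 384 and 333 on the control arrays. Both berberine values lay above both control values, a 2.23-fold difference (log2 change 1.16, SE 0.14, adjusted p = 0.00276), which was 0.55 and did not pass in the deposited values (adjusted p = 0.192). Wnt4, a ligand of kidney and reproductive tract development, read 104 and 87 with berberine, against 249 and 256 in control. The berberine mean was under the floor, so the fall was at least 2.65-fold (log2 change -1.41, SE 0.14, adjusted p = 0.00187).

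Smaller rises were called for Wnt11, Wnt1 and Wnt10a. Wnt11, which acts mainly outside the canonical branch, read 479.7 and 385 with berberine, against 243 and 282 in control (log2 change 0.72, SE 0.17, adjusted p = 0.0242). Wnt1, the founding canonical ligand, read 912 and 870.2, against 578 and 661 (0.53, SE 0.13, adjusted p = 0.0303). Wnt10a, one of the ligands known to hold back adipogenesis in mouse cells, read 307 and 305, against 209.7 and 232 (0.47, SE 0.13, adjusted p = 0.0345). In each of these 3 genes the groups did not overlap, as at 74.8% of all probes. None of the 3 calls held in the deposited values or on the 75th percentile. In the deposited values the changes were 0.15 for Wnt11, -0.076 for Wnt1 and -0.059 for Wnt10a. Without control replicate 1 all 3 missed the threshold (adjusted p = 0.0571 to 0.112), and Wnt11 also missed it without control replicate 2 (0.0766).

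The ligand genes best known in preadipocytes gave little. The Wnt10b probe read 36.2 and 34 with berberine and 40.3 and 43.1 in control, under the floor on all 4 arrays, so no change of this gene can be read. Wnt6, which with Wnt10a and Wnt10b is known as an anti-adipogenic ligand in mouse cells, read 978 and 985 with berberine, against 1538 and 1043 in control. Its groups did not overlap, but the control arrays stood far apart, and it did not pass (log2 change -0.37, SE 0.21, adjusted p = 0.221), though it did without control replicate 2 (-0.67, adjusted p = 0.0299). Wnt5a, the ligand best known for the polarity and calcium branches, read 3180.1 and 3239 with berberine, against 3609 and 3721 in control. Its change of -0.19 did not pass (95% interval -0.50 to 0.12, adjusted p = 0.247), and it was 0.24 after centring. Wnt5b read 292 and 466, against 167 and 259, a change of 0.83 that did not pass (SE 0.32, adjusted p = 0.0923). Wnt3 read 383 and 372, against 272 and 151 (0.90, SE 0.30, adjusted p = 0.0624) and passed without either control array (adjusted p = 0.0135 and 0.0498) and with the dim probes filtered out (0.0464).

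The remaining Wnt probes are Wnt2, Wnt2b, Wnt3a, Wnt7a, Wnt7b, Wnt8a, Wnt8b, Wnt9b and Wnt16, none of which passed. Over the 11 Wnt probes that did not pass and were at or above the floor in a group, the changes ran from -0.37 to 0.90. Wnt2b and Wnt7b were the least well measured. Wnt7b read 322 and 792 with berberine and 321 and 564 in control, and its 95% interval reached from -1.06 to 1.55. Wnt2b read 190.4 and 277 with berberine and 115 and 309 in control, with an interval from -1.01 to 1.58. For both genes the arrays of a group differed more than the groups did.

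Porcn was lower with berberine. It encodes the acyltransferase of the endoplasmic reticulum that adds the lipid Wnt proteins need for release. The gene lies at chrX:8193846-8206548 (GRCm38.p6). Its probe read 1435 and 1473 on the berberine arrays, against 4642 and 3508 on the control arrays, with no overlap. The fall was 2.78-fold (log2 change -1.47, SE 0.18, adjusted p = 0.00291) and passed in all 4 scalings, with changes from -1.75 to -1.18. Without berberine replicate 1 or 2 it missed the threshold (adjusted p = 0.0619 and 0.0660) at changes of -1.38 and -1.42.

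**Figure D2:**
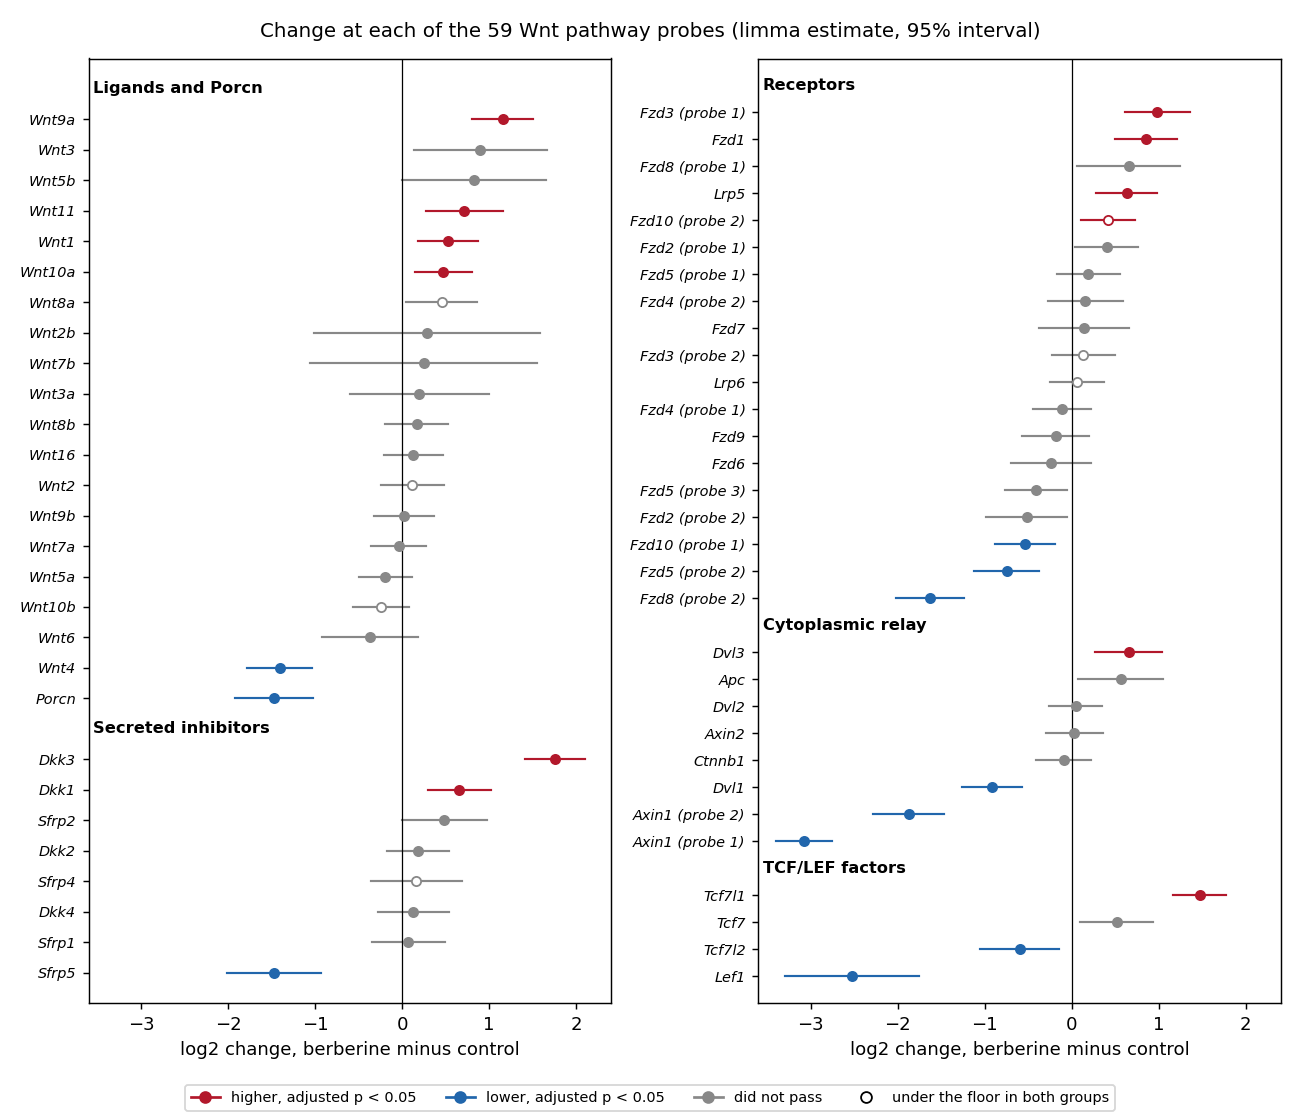
Log2 change, berberine minus control (horizontal axis), with its 95% interval at each of the 59 member probes, grouped by role and coloured by call, with open points for probes under the floor in both groups. Falls past 2-fold are seen at Axin1, Lef1, Fzd8 probe 2, Sfrp5, Porcn and Wnt4 and rises past 2-fold at Dkk3, Tcf7l1 and Wnt9a. Wnt2b and Wnt7b have the widest intervals.

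Among the receptors, Fzd1, Lrp5 and 1 probe of Fzd3 were higher with berberine, and 1 probe each of Fzd5, Fzd8 and Fzd10 was lower. The 10 Frizzled genes had 17 probes. Of these, 3 were higher (1 of them, of Fzd10, under the floor in both groups), 3 lower and 11 did not pass. Over the whole array, 27.1% of probes were higher and 17.7% lower. Fzd1 (chr5:4753839-4758216, GRCm38.p6) read 14245 and 14443 with berberine, against 7368 and 8573 in control. The berberine arrays were close to each other and above both controls, a 1.80-fold rise (log2 change 0.85, SE 0.14, adjusted p = 0.00730) that was 1.00 to 1.56 in the other scalings and passed in all of them. It was not called without berberine replicate 1 or 2 (adjusted p = 0.0828 and 0.0905), at changes of 0.85 and 0.83. Lrp5, a co-receptor, read 4097 and 3860.4, against 2395 and 2746 (0.63, SE 0.14, adjusted p = 0.0181), and passed in every scaling except the deposited values (0.45, adjusted p = 0.220). The probe of its partner Lrp6 read 37.8 and 39.8 with berberine and 37.6 and 36.8 in control, under the floor on all arrays, so nothing can be read for Lrp6.

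Of the Frizzled genes with several probes, numbered here by probe name, none had all probes called in 1 direction. Fzd8 fell at probe 2, which read 265 and 273 with berberine, against 749.9 and 917 in control. It was lower by 3.09-fold (log2 change -1.63, SE 0.15, adjusted p = 0.00138) and passed in all 4 scalings and without any single array. Fzd8 probe 1 read 116 and 107, against 87.3 and 57.6, near the floor and with the opposite sign (0.66, adjusted p = 0.0715), and it passed after centring (1.00) and on the 75th percentile (0.74). Fzd3 probe 1 read 449.7 and 491, against 219.7 and 256, a 1.98-fold rise (0.99, SE 0.14, adjusted p = 0.00534) that did not pass in the deposited values (0.41) or on the 75th percentile (0.71, adjusted p = 0.0526). Fzd3 probe 2 was under the floor in both groups. Fzd5 fell at probe 2, at 167 and 161 against 251 and 301 (-0.74, SE 0.14, adjusted p = 0.0133), while its probe 1 read 1991 and 1743, against 1554 and 1713, and did not pass (0.19, adjusted p = 0.317). Fzd5 probe 3 had a change of -0.41 (adjusted p = 0.0658), which passed with the dim probes filtered out (0.0478).

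Fzd2, Fzd4 and Fzd10 likewise gave no single answer. Fzd2 probe 1 read 3981 and 3594 with berberine, against 3062 and 2674 in control, and probe 2 read 3794 and 3191, against 4407 and 5630.2. The groups did not overlap at either probe, as at 74.8% of all probes. The changes of 0.40 and -0.52 had opposite signs and both missed the threshold (adjusted p = 0.0729 each). After centring probe 1 was 0.80 and passed (adjusted p = 0.0219) and probe 2 was -0.0039. The signs were opposite in all 4 scalings, while the size of each change and the call of probe 1 followed the scaling. Fzd10 probe 1 read 116 and 130.5, against 184 and 173 (-0.53, adjusted p = 0.0277), a call lost after centring, on the 75th percentile and without any 1 of the 4 arrays. Its probe 2 was under the floor in both groups. The 2 probes of Fzd4 did not pass, nor did the single probes of Fzd6, Fzd7 and Fzd9, though Fzd9 was called lower in the deposited values (-0.77, adjusted p = 0.0497). Fzd7, at 9519.7 and 7884 with berberine against 9087 and 6785 in control, overlapped between the groups (0.14, 95% interval -0.37 to 0.66), and was 0.83 and passed after centring (adjusted p = 0.0438).

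Of the secreted inhibitors, Dkk3 was higher and Sfrp5 lower with berberine. Dkk3, a divergent Dickkopf protein whose part in Wnt signalling is less clear than that of Dkk1, read 2021 and 1947 on the berberine arrays, against 629 and 549.7 on the control arrays. The groups stood well apart, a 3.37-fold rise (log2 change 1.75, SE 0.13, adjusted p = 0.000805). The call held in all 4 scalings (1.24 to 1.81) and without any single array. Sfrp5, a decoy that binds Wnt proteins and is known as a product of mouse adipocytes, read 89.8 and 80.5 with berberine, against 282 and 198 in control. Both berberine values were under the floor, so the fall was at least 2.48-fold (-1.47, SE 0.21, adjusted p = 0.00487). It missed the threshold without berberine replicate 1 or 2 (adjusted p = 0.0675 and 0.0815), at changes of -1.56 and -1.48.

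The other inhibitors changed less. Dkk1, which blocks Lrp5 and Lrp6, read 115 and 101 with berberine, against 64.8 and 72 in control, where it lay under the floor. Its rise was at least 1.13-fold (log2 change 0.66, SE 0.14, adjusted p = 0.0172) and did not pass in the deposited values (0.47) or on the 75th percentile (0.78, adjusted p = 0.0616). Sfrp2, a decoy made by stromal cells, read 26534 and 24249.8 with berberine, against 21179 and 15579 in control. The groups did not overlap, but the 2 controls differed more from each other than the nearer one did from the berberine arrays, and the change of 0.48 did not pass (SE 0.19, adjusted p = 0.0961). It was 1.25 after centring and 0.99 on the 75th percentile and passed in both. Sfrp1, the decoy known to favour adipogenesis in mouse cells, overlapped between groups, at 491 and 466 with berberine against 405 and 511 in control (0.07, 95% interval -0.34 to 0.49). Dkk2 and Dkk4 did not pass, and Sfrp4 was under the floor in both groups.

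In the cytoplasmic relay, Axin1 showed the largest fall of all members, at both of its probes. Axin1 is the scaffold that brings the kinases of the destruction complex to beta-catenin, and lies at chr17:26131217-26195811 (GRCm38.p6). Probe 1 read 142 on both berberine arrays, against 1145 and 1256 on the control arrays, lower by 8.45-fold (log2 change -3.08, SE 0.12, adjusted p = 0.000155). Probe 2 read 190.4 and 176 with berberine, against 602 and 743 in control, a 3.66-fold fall (-1.87, SE 0.16, adjusted p = 0.00104). Axin1 was the single member gene with more than 1 probe whose probes were all called in the same direction. Both calls held in all 4 scalings and without any single array, with changes from -3.53 to -2.96 at probe 1 and from -2.40 to -1.71 at probe 2.

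Axin2, the close relative of Axin1 that canonical Wnt signalling itself induces, overlapped between the groups. It read 491 and 517 with berberine, against 469.6 and 517 in control, a change of 0.03 (95% interval -0.30 to 0.36, adjusted p = 0.858) that was -0.60 in the deposited values and did not pass there either (adjusted p = 0.119). Ctnnb1, which encodes beta-catenin, read 27812 on both berberine arrays, against 28482 and 30867 on the control arrays. Its change of -0.09 did not pass (95% interval -0.41 to 0.23, adjusted p = 0.578), but after centring it was 0.69 and passed (adjusted p = 0.0148), so its direction rests on the scaling. Apc, the other scaffold, read 183 and 237, against 155 and 128, and did not pass (0.56, SE 0.19, adjusted p = 0.0650). It passed after centring (0.68, adjusted p = 0.0431), with the dim probes filtered out (0.0479) and with a trended robust prior (0.0390).

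The Dishevelled proteins, which link Frizzled receptors to the complex, went apart. Dvl1 read 2395 and 2459 with berberine, against 4903 and 4269.9 in control, lower by 1.89-fold (log2 change -0.91, SE 0.13, adjusted p = 0.00552), which missed the threshold after centring (-0.51, adjusted p = 0.0577). Dvl3 read 1565 and 1388, against 868 and 1011, a 1.57-fold rise (0.65, SE 0.15, adjusted p = 0.0211) that did not pass in the deposited values (0.13) or on the 75th percentile (0.44). Dvl2 read 802 and 772, against 769 and 756, and did not pass (0.05, 95% interval -0.26 to 0.35). The groups did not overlap at any of the 3 genes, as at 74.8% of all probes.

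The TCF/LEF factors, which bind the target genes of beta-catenin, also moved in opposite directions: Tcf7l1 was higher and Lef1 lower with berberine. Tcf7l1, known mainly as a repressor that beta-catenin relieves, read 27235 and 26688 on the berberine arrays, against 9683 and 9766 on the control arrays. The arrays of each group were close together, and the 2.77-fold rise (log2 change 1.47, SE 0.12, adjusted p = 0.000916) held in all 4 scalings, at 1.47 to 2.20, and without any single array. Lef1, known mainly as an activator and itself a Wnt target, read 81.5 and 47.2 with berberine, against 399 and 318 in control. Both berberine values were under the floor, so the fall was at least 3.74-fold (-2.52, SE 0.30, adjusted p = 0.00281), and it too held in all 4 scalings and without any single array. Tcf7l2 read 5347 and 5739, against 9601 and 7306, and was called lower (-0.60, SE 0.18, adjusted p = 0.0455). That call was lost in each other scaling, with a change of 0.057 after centring, and without control replicate 1 or either berberine array. Tcf7 read 151 and 177, against 125 and 104, and did not pass (0.52, SE 0.16, adjusted p = 0.0531). It passed after centring (0.70, adjusted p = 0.0224), with an offset of 16 (0.0496), with the dim probes filtered out (0.0381) and with a trended robust prior (0.0343).

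The 250 bases before the start sites of 6 genes are shown, since the TCF/LEF factors act on such sequences. They are the genes with a probe called in all 4 scalings for which a RefSeq promoter was on hand. They are from RefSeq (GRCm38.p6), 5′ to 3′ on the gene's strand. On the minus strand are chr6:72789046-72789295 for Tcf7l1, chr5:4758217-4758466 for Fzd1, chr1:64737751-64738000 for Fzd5 and chr19:42202253-42202502 for Sfrp5. On the plus strand are chr4:137277385-137277634 for Wnt4, and chr3:131110047-131110296 and chr3:131156044-131156293 for the first and last of 4 Lef1 windows. Capitals mark the TCF/LEF core CTTTGA on either strand, which reads TCAAAG on the other one.
Tcf7l1: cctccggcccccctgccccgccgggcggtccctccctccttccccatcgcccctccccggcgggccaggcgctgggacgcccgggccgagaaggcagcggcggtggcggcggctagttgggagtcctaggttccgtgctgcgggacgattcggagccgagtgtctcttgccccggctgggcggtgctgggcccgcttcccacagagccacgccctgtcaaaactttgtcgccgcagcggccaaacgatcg
Lef1, first start: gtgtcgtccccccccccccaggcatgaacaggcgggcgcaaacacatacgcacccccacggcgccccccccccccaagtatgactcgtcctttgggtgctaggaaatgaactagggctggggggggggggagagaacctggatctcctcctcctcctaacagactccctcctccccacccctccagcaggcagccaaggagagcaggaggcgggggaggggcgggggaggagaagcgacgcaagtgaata
Lef1, last start: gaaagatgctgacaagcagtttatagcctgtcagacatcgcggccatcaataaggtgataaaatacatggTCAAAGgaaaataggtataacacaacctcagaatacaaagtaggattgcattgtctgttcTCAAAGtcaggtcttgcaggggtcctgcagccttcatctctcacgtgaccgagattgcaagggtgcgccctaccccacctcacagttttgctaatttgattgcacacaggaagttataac
Fzd1: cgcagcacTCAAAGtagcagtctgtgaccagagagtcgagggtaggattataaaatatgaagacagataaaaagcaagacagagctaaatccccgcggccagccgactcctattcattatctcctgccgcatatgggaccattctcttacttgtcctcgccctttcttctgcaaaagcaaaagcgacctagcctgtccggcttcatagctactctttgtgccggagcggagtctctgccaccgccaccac
Fzd5: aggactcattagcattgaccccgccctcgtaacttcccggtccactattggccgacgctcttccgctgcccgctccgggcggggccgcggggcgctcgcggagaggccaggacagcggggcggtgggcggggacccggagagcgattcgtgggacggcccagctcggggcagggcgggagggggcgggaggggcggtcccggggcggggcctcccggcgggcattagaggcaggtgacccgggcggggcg
Wnt4: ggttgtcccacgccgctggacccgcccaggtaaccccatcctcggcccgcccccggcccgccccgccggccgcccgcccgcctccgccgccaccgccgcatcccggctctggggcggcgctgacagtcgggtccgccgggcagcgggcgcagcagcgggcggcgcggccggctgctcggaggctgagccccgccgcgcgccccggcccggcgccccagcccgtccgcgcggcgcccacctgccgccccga
Sfrp5: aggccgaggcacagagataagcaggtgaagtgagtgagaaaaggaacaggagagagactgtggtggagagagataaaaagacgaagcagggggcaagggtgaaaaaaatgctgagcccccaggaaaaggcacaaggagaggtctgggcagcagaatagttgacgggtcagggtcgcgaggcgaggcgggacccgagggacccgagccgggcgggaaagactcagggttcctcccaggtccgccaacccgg
The core begins 180 and 120 bases before the last Lef1 start and 242 bases before the Fzd1 start. It is not in the windows of Tcf7l1, Fzd5, Wnt4 or Sfrp5, or in the other Lef1 windows. Windows of 250 bases before to 50 after a start were on hand for 34 of the 51 member genes. The core was in 5 of their 43 windows, 11.6%, against 16% of all 32851 windows. The cAMP response element TGACGTCA was in 1, or 2.3%, against 1.79% of all windows. That window is of Dvl1, and the element begins just after the start. Which start these cells use was not measured.

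**Figure D3:**
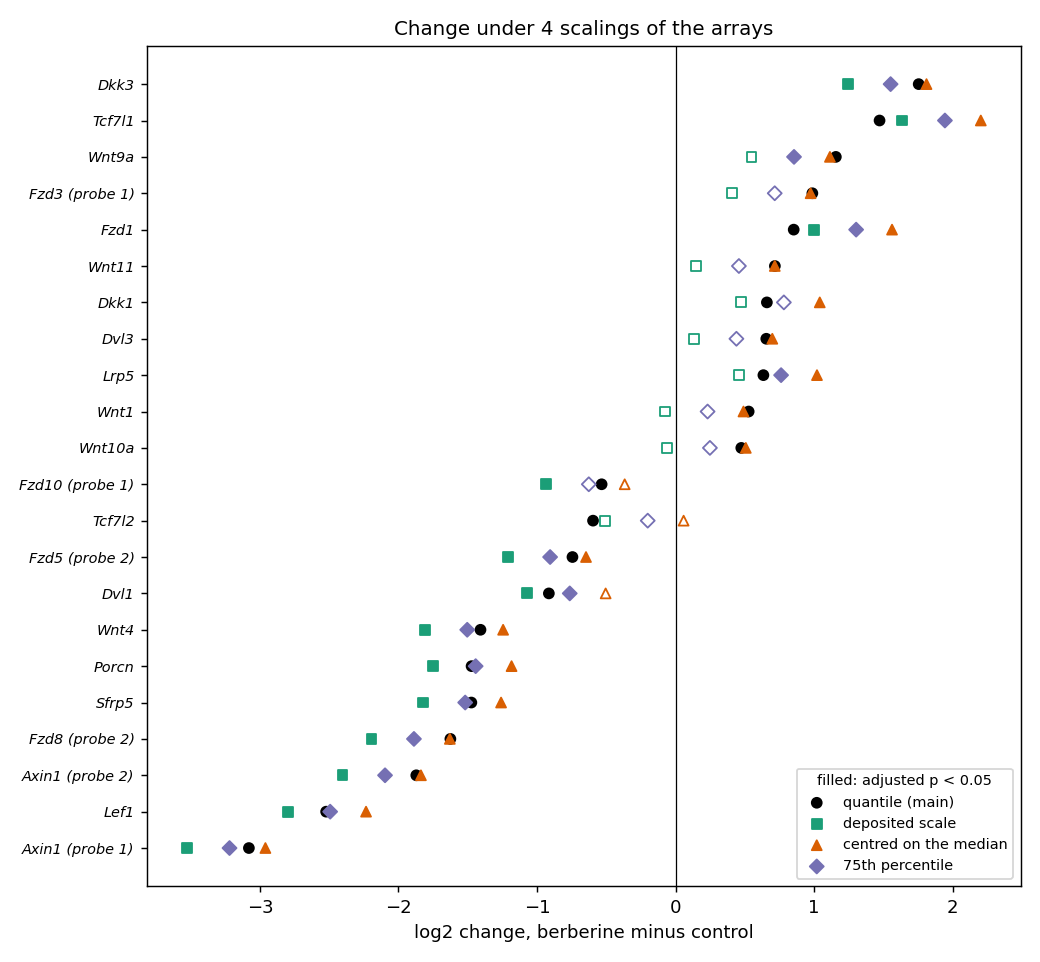
Log2 change, berberine minus control (horizontal axis), of the 22 member probes past the threshold and at or above the floor in a group, under quantile normalization and 3 other scalings, filled where adjusted p is under 0.05. Axin1, Lef1, Fzd8 probe 2, Fzd5 probe 2, Sfrp5, Porcn, Wnt4, Dkk3, Tcf7l1 and Fzd1 are filled throughout, while Wnt1, Wnt10a and Tcf7l2 have points on both sides of 0.

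Genes of the pathway outside these families were taken from 7 lists by role, written from general knowledge. Of their 113 genes 105 were measured, at 125 probes, and 37 probes were higher and 33 lower, or 29.6% against 27.1% of all probes and 26.4% against 17.7%. The median change was 0.23, against 0.17 for all probes. With at least a 2-fold change in addition, 32.8% were called, against 22% of all probes. The groups did not overlap at 80.0%, against 74.8% of all. No list was tested as a set. The split was 19 higher and 28 lower in the deposited values, 62 and 25 after centring, and 36 and 26 on the 75th percentile. Many of the pathway calls given below were lost without berberine replicate 1, and likewise without berberine replicate 2. They include those of Rspo2, Rspo3, Ror2, Znrf3, Gpc3, Gpc4, Frzb, Amer1, Rnf146, Cxxc4, Csnk1g1, Ep300, Ctbp2 and Camk2g, and the 2 smaller calls of Nfatc4. The call of Rac1 was lost without berberine replicate 2.

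Among genes of Wnt release and R-spondins, 2 of 6 probes were higher and 0 lower (of all probes, 27.1% and 17.7%). Rspo2, a secreted protein that strengthens Wnt signals, read 968 and 909.8 with berberine, against 402 and 335 in control (log2 change 1.35, SE 0.15, adjusted p = 0.00223), and Rspo3 was 0.57 higher (adjusted p = 0.0372). Both calls were lost in the deposited values (0.76 for Rspo2, 0.18 for Rspo3), and that of Rspo3 also on the 75th percentile and without control replicate 2. Wls, the carrier that takes Wnt proteins to the surface, read 62235 and 53778, against 38846 and 44285, and just missed the threshold (0.48, adjusted p = 0.0522). Vps35, of the retromer that recycles it, did not pass (0.37, adjusted p = 0.155). After centring and on the 75th percentile both were called higher, Wls at 1.26 and 1.00 and Vps35 at 1.13 and 0.87.

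Co-receptors and membrane regulators went both ways, 4 higher and 5 lower of 14 probes (of all probes, 27.1% and 17.7%). Kremen1, the receptor through which Dkk1 removes Lrp6, read 872 and 819 with berberine, against 3850.4 and 5127 in control (log2 change -2.39, SE 0.18, adjusted p = 0.000760). Ptk7, a co-receptor of the polarity branch, read 537 and 501, against 2512 and 2137 (-2.16, SE 0.14, adjusted p = 0.000555). Ror2, the tyrosine kinase receptor of Wnt5a, read 571 and 552, against 141 and 202 (1.73, SE 0.20, adjusted p = 0.00274). In all 3 genes the groups stood well apart. Znrf3, a ubiquitin ligase that removes Frizzled, fell by 1.03 (adjusted p = 0.00529), and the glypicans Gpc3 and Gpc4 rose by 0.72 and 0.87. In the deposited values neither glypican passed (Gpc3 0.13, Gpc4 1.02 with adjusted p = 0.0529), nor did Gpc3 on the 75th percentile (0.43). Lgr4, the R-spondin receptor, and Reck did not pass (0.51 and -0.16), but Lgr4 was called after centring (1.28) and on the 75th percentile (1.02).

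Other inhibitors gave 2 higher and 1 lower of 10 probes (of all probes, 27.1% and 17.7%). Tpbg, a membrane inhibitor of canonical signalling, rose at 1 probe, at 1969 and 2253 with berberine against 615 and 529.7 in control (log2 change 1.88, SE 0.15, adjusted p = 0.000893), while its other probe missed the threshold (-0.24, adjusted p = 0.453). Dkkl1, a Dickkopf-like protein, fell by 1.66 (adjusted p = 0.000983) and Frzb, a decoy, rose by 0.64 (adjusted p = 0.0193), a call lost in the deposited values (0.26), on the 75th percentile (0.56) and without any 1 of the 4 arrays. Igfbp4 did not pass (0.09) but was 0.87 and called after centring. Around the destruction complex 6 probes were higher and 6 lower of 25 (of all probes, 27.1% and 17.7%). Ppp2r5a, a phosphatase subunit, read 940.4 and 1353, against 4755 and 5219.7 (-2.14, SE 0.21, adjusted p = 0.00162), and Cxxc4, an inhibitor of Dishevelled, fell by 0.78. Amer1, a partner of Apc, rose by 0.98, a call lost in the deposited values (0.77), and the casein kinase Csnk1g1 by 1.08. Tnks2, a tankyrase that marks Axin for destruction, fell by 1.87 at 1 probe (adjusted p = 0.00120) but at its other probe it missed the threshold (0.28, adjusted p = 0.154), which it passed after centring (1.07) and on the 75th percentile (0.81). Ppp2ca did not pass (-0.22, adjusted p = 0.222) but was 0.56 and called after centring.

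Among nuclear partners 8 of 19 probes were lower and 3 higher (of all probes, 17.7% were lower and 27.1% higher). Bcl9l, a coactivator that holds beta-catenin, read 1766 and 1915 with berberine, against 11919 and 8837 in control (log2 change -2.48, SE 0.18, adjusted p = 0.000755). Tle3, a Groucho corepressor of TCF/LEF factors that in mouse preadipocytes is known to favour adipogenesis, read 104 and 107, against 482 and 544 (-2.28, SE 0.13, adjusted p = 0.000376). Sox9 fell by 1.48 and 1 probe of the corepressor Ctbp2 by 1.10, with the other Ctbp2 probe at 0.40 and not past the threshold. Tle1 fell by 1.17 at 1 probe, and its other probe missed the threshold (0.05), which it passed after centring (0.68). The acetyltransferase gene Ep300 rose by 1.29 (adjusted p = 0.00268), while Crebbp, on the same list, fell by 1.47 (adjusted p = 0.00731). The Crebbp call was lost without berberine replicate 1 or 2, at changes of -1.60 and -1.45. Ctbp1 did not pass (-0.13) but was 0.65 and called after centring.

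In the planar polarity and calcium branch 13 of 29 probes were higher and 7 lower (of all probes, 27.1% and 17.7%). Daam2, a formin that works with Dishevelled, read 3418 and 3267 with berberine, against 578 and 400.1 in control, a 6.95-fold rise (log2 change 2.80, SE 0.21, adjusted p = 0.000745). Vangl2, a core polarity protein, read 384 and 383, against 141 and 130.5 (1.50, SE 0.12, adjusted p = 0.000989), and the kinase gene Prkca rose by 1.68 (adjusted p = 0.000866). Rac1 fell by 1.11 (adjusted p = 0.00231) and Camk2d at least 2.41-fold (adjusted p = 0.000682). Nfatc4, a calcium-driven factor, fell at least 8.94-fold at 1 probe, while its other probes were at -0.59 (lower) and 0.68 (higher). Camk2g fell at 1 probe, at 1385 and 1243 with berberine against 4724 and 3251 in control (-1.58, SE 0.21, adjusted p = 0.00437), and its other probe did not pass (0.01, adjusted p = 0.967) but was 0.77 and called after centring. Rhoa did not pass (0.44) but was 1.21 after centring and 0.96 on the 75th percentile and called in both. Rac1 was not called after centring (-0.33) or on the 75th percentile (-0.59). The 2 smaller Nfatc4 calls were lost in the deposited values and on the 75th percentile. Those 2 calls and that of Camk2g were also lost without berberine replicate 1 or 2, where the Camk2g change was -1.58 and -1.43.

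Genes known as Wnt targets in other settings gave 7 higher and 6 lower of 22 probes (of all probes, 27.1% and 17.7%). Apcdd1, a membrane inhibitor that Wnt signals induce, read 47.2 and 50.5 with berberine, against 1189 and 1392 in control, a fall of at least 13.5-fold to under the floor (log2 change -4.72, SE 0.14, adjusted p = 8.96e-05). Ccnd1, which encodes cyclin D1, read 8000.1 and 8284, against 51231 and 65774, a 7.13-fold fall (-2.83, SE 0.17, adjusted p = 0.000388), and Jun fell 3.13-fold. Cd44, a cell adhesion receptor, read 17734 and 16809, against 4224 and 4252, a 4.07-fold rise (2.03, SE 0.12, adjusted p = 0.000402). Birc5, at 2 of its 3 probes (-3.43 and -1.31, the other at 0.03), and Id2 were also among the falls. The other called rises, named here so that both directions are shown, were Cdx1 (1.63), Ppard (1.49), T (1.40), Fosl1 (1.19), Runx2 (0.72) and Ccn5 (0.67). Of these, T and Ccn5 were not called in the deposited values, nor T on the 75th percentile. Without control replicate 2 the calls of T and Runx2 were lost. Of the 6, Ppard alone passed without either berberine array. Twist1 and Ccn4 did not pass (0.21 and 0.14) but were called after centring (0.95 and 0.82), and Twist1 also on the 75th percentile (0.69). Each of these genes is known to answer to other signals as well.

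**Figure D4:**
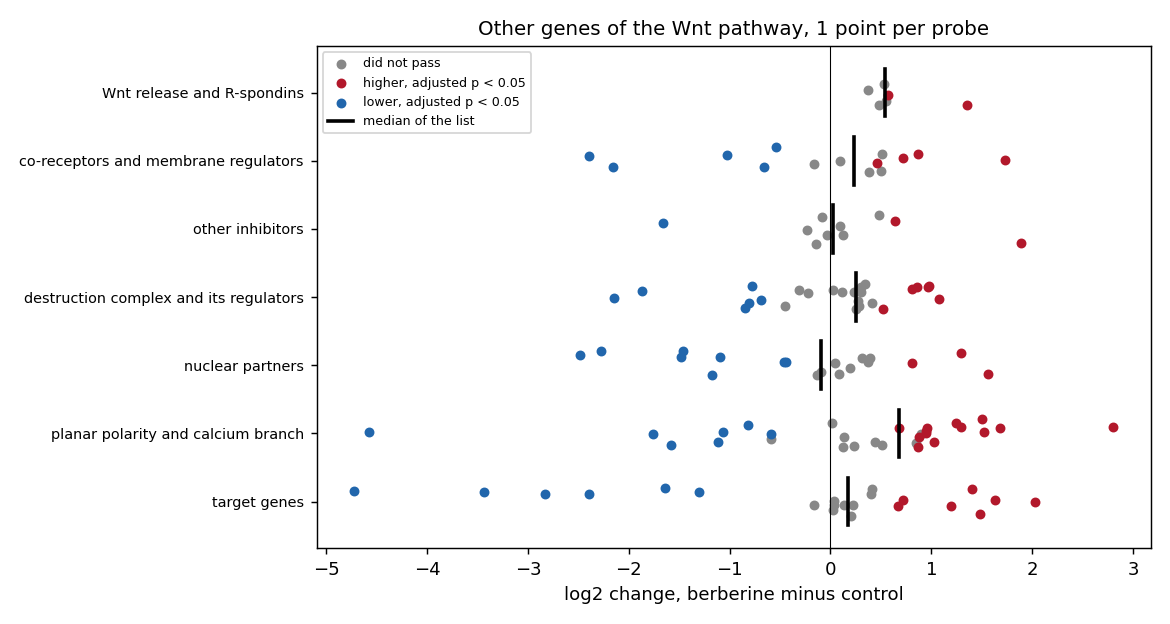
Log2 change, berberine minus control (horizontal axis), of 125 probes for pathway genes outside the Wnt, Frizzled, Sfrp, Dkk and Dishevelled families, in 7 lists by role, with 1 point per probe coloured by call and a bar at each list's median. Every list except that of Wnt release and R-spondins holds both called rises and called falls.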

How the data were processed

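Gene expression was measured on 1-colour arrays with Cy5-labelled RNA, 1 per sample, per the labels' protocols. The values deposited by the authors are linear intensities, 1 whole number per probe. The sources used here do not give the scanner, background correction or scaling, so the zero point is unknown. Of 26423 probes, 20377 had 1 gene symbol, 0 several and 6046 none in the platform annotation, which carries no accessions; 18213 matched a current mouse symbol, 2126 an older one and 38 kept the platform's. Of the 26423 probes, 15, with a value of 0 or less on at least 1 array, have no log and were dropped. The remaining 26408 were put on log2, quantile-normalized and fitted with limma 3.58.1 (R 4.3.3; lmFit, eBayes), and p-values were adjusted across the whole array (Benjamini-Hochberg, threshold 0.05). With 2 arrays a group an exact permutation test reaches p = 0.33 at best, so p-values depend on limma's pooling of variance over probes (2 residual and 2.89 prior degrees of freedom). The small number of arrays limits precision. Groups were taken from sample titles; the treatment text, which names berberine for controls too, gave only doses and time. All members at or above the floor and past the threshold were named, as were up to 6 called and 2 uncalled probes per pathway list. Members and lists were chosen with earlier results of these data known. Alternatives were 3 scalings, log2(value + 16), a filter at the floor, a trended robust prior, the replicate number as a block, each array left out, 1 probe per gene, and an added 2-fold limit.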

Additional observations from a re-analysis of the deposited data

How the results depend on the processing

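Settings were changed one at a time, except that the trended and robust priors went together, and that the offset of 16 also kept the 15 probes otherwise dropped. The number of probes called over the whole array was 11838. It was 6687 in the deposited values and 5806 with at least a 2-fold change in addition, and 3346 to 10787 with each array left out, the lone array being assumed to vary like the other group. Calls among Wnt members numbered 23, against 14 in the deposited values, 10 with the 2-fold limit and 7 to 22 with each array left out. Calls among other pathway probes numbered 70, against 41 with the 2-fold limit and 24 to 68 with each array left out. The low ends belong to the berberine arrays: without berberine replicate 1 or 2, 3710 and 3346 probes passed over the array, 7 and 7 members and 26 and 24 other pathway probes, and the cause was not tested. In no setting run was a called member called in the opposite direction. Among named probes called under quantile normalization or under the scaling given, direction turned for Wnt1 (-0.076) and Wnt10a (-0.059) in the deposited values, and after centring for Tcf7l2 (0.057), Ctnnb1 (0.69), Ppp2ca (0.56) and Ctbp1 (0.65), as well as 1 probe each of Nfatc4 (0.13) and Tle5 (0.28). Among uncalled members the sign of small changes often followed the scaling, as for Axin2 (-0.60), Dvl2 (-0.56), Sfrp1 (-0.54) and Dkk2 (-0.39) in the deposited values and Wnt5a (0.24) after centring. The labels' replicate numbers are shared by both groups, but deviations of same-numbered arrays from their group means did not go together (r = 0.0035 over probes), so the numbers were not taken as pairs. With the replicate block 27 members, 72 other pathway probes and 12760 probes of the array passed. The members gained were Apc, Wnt3, Wnt5b, Tcf7, Fzd2 probe 2 and Fzd8 probe 1, with adjusted p from 0.00183 (Wnt5b) to 0.0473 (Fzd2), and those lost were Wnt10a and Fzd10 probe 2. Faint probes limit what can be read, and 7 member probes lay under the floor in both groups.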

Other observations

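Rnf146 and Tle5, picked out after their values were seen, had probes called in opposite directions. Rnf146, a ubiquitin ligase that acts on Axin, rose by 0.97 on log2 at 1 probe and fell by 0.81 at the other, and neither passed in the deposited values (0.35 and -0.87) or on the 75th percentile (0.66 and -0.56). Tle5, a short Groucho-related protein, rose by 0.81 at 1 probe, which passed in all 4 scalings. That call was lost without control replicate 2 (change 0.63) and without berberine replicate 1 (0.69) or 2 (0.91). The other Tle5 probe fell by 0.44 and passed in none of the other scalings, with changes from -0.28 to 0.28.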
